A study of Rattus norvegicus with 48 samples.

Results

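Liver RNA of 6 genes was followed in a rat model of steatohepatitis, 5 of them commonly used as markers of macrophages and the sixth coding for the secreted protein osteopontin. They are *Cd68* (ENSRNOG00000037563), *Itgam* (ENSRNOG00000019728), *Aif1* (ENSRNOG00000000853), *Cd14* (ENSRNOG00000017819), *Tlr4* (ENSRNOG00000010522) and *Spp1* (ENSRNOG00000043451), taken by their Ensembl identifiers from the 32662 genes of the deposited tables. All 6 were among the 12756 genes that passed the filter on low counts, at least 1 CPM (count per 1e6 reads on genes) in at least 5 of the 8 animals of a group.

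The 48 livers came from male Wistar rats (RjHan:WI) that entered the study at 6 weeks of age and were housed pairwise. Control rats received a choline-supplemented L-amino acid-defined diet (CSAA), and the others received the choline-deficient counterpart with 1% added cholesterol (CDAA), which also held more fat, less carbohydrate, slightly less protein and less methionine. These components thus changed together with choline and cholesterol, and the effect of any one of them cannot be told apart. Livers were taken after 4, 8 and 12 weeks on diet, from 8 animals per diet and week, and the cage of each animal is not given in the sources used here.

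Macrophages of the liver comprise the resident Kupffer cells of the sinusoids and cells derived from blood monocytes, which enter the organ during injury. They take up particles and lipid by endocytosis, sense microbial products through pattern recognition receptors, and attach to matrix and endothelium through integrins. CD68 is a glycoprotein of the late endosome and lysosome membrane. ITGAM (CD11b) is the alpha chain of the integrin Mac-1 (complement receptor 3) of monocytes, granulocytes and many macrophages. AIF1 (IBA1) is a calcium- and actin-binding protein of the macrophage cytoskeleton. CD14 binds lipopolysaccharide and passes it to the receptor complex of TLR4, which signals through MyD88 and TRIF. Osteopontin is an acidic phosphoprotein that binds integrins and CD44, and besides macrophages it is also made by bile duct cells and by activated stellate cells. In RNA of whole liver, more cells of a type and more RNA per cell cannot be told apart. Markers of other liver cell types were not analysed here.

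Promoter sequences were available for 5 of the 6 genes in RefSeq (build GRCr8, another build than the Rnor_6.0 annotation behind the counts). Shown are the 250 bases before the annotated start of the 3 genes with more than 2-fold higher RNA on CDAA at every week, *Spp1* (chr14:5619805-5620054, minus strand), *Cd68* (chr10:54882442-54882691, minus strand) and *Itgam* (chr1:192089342-192089591, plus strand), each written 5′ to 3′ on the strand of its gene. Capitals mark matches, on either strand, of the core of the myeloid factor PU.1 (GAGGAA, or TTCCTC on the other strand), of the AP-1 site TGANTCA and of the TATA box letters TATAAA. No matches overlapped in these windows.
Spp1: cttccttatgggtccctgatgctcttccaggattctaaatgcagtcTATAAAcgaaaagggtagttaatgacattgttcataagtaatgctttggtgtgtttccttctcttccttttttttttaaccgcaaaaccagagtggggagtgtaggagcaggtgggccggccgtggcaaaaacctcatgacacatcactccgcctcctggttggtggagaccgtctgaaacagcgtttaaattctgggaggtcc
Cd68: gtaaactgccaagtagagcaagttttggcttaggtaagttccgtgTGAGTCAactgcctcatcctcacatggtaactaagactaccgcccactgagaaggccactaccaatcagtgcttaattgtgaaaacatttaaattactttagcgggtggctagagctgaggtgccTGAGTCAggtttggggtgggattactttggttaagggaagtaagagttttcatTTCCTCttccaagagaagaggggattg
Itgam: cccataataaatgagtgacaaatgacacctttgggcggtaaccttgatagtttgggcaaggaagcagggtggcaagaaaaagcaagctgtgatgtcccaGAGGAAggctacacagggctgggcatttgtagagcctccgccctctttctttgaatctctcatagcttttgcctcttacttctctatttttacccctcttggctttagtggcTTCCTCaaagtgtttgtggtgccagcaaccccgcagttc

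The PU.1 core was found in 4 of the 5 windows, those of *Cd68*, *Itgam*, *Cd14* and *Tlr4*, and in 23.3% of all 33469 windows of this length. In *Itgam* it began 151 and 39 bases before the start, and in *Cd68* 27 bases before it. *Cd68* was the only one of the 5 windows with an AP-1 site, at 205 and 80 bases before the start, against 6.34% of all windows. The *Spp1* window had neither motif, and its TATAAA letters, present in 12.9% of all windows, lay 204 bases before the start. Such matches are letters in a sequence, not measured binding.

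Reads on genes ranged from 13619274 to 22284359 per animal. The composition of the libraries differed between the diets, as shown by the TMM factor (trimmed mean of M-values, the scaling for library composition used in the test). At week 4 the 8 CSAA animals had a mean factor of 0.808 ± 0.0333 (SD) and the 8 CDAA animals one of 1.07 ± 0.108 (SD), and by week 12 these means were 0.777 ± 0.0441 (SD) and 1.37 ± 0.0515 (SD). Fold changes from RPKM (reads per gene length and per size of the library), which do not hold this factor, are therefore larger than those of the test. Over all tested genes, the median log2 fold change of CDAA against CSAA with TMM lay close to 0, with values of -0.02, 0.05 and -0.09 at weeks 4, 8 and 12, whereas it was 0.39, 0.65 and 0.73 with scaling to library size alone.

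Single animals lay far from their groups in several of these genes. Animal 303 (CDAA, week 4) had the lowest RPKM of its group in all 6 genes, and its TMM factor was 0.827 where the other 7 animals had 1.04 to 1.17. Animals 504 and 502 (CSAA, week 8) had the 2 highest values of their group in *Spp1*, *Cd68* and *Itgam*, and animal 504 had a TMM factor of 1.01 against at most 0.876 in the others. Animal 908 (CSAA, week 12) was highest of its group in 5 of the 6 genes, all but *Aif1*, and had a TMM factor of 0.862 against at most 0.801. Animal 1102 (CDAA, week 12) had the lowest *Itgam*, *Cd14* and *Aif1* of its group. These ranks are of RPKM. After TMM scaling, the lowest *Cd14* of CDAA at week 4 was in animal 304, and the highest of CSAA at week 12 in animal 903. On CDAA at week 12, *Cd14* and *Aif1* were then lowest in animal 1104. The reads on genes of these 5 animals, 21836816, 15851098, 18667073, 17138584 and 19342366 in the order named, were within the range of the others in their groups. All animals were kept. For the results described one by one, the values without these animals are given where they change a call or a direction.

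At each of the 3 weeks, *Spp1*, *Itgam* and *Cd68* were higher on CDAA by more than 2-fold, whereas *Cd14*, *Tlr4* and *Aif1* differed by less than 2-fold. With TMM scaling, 3 of 6 genes were thus called higher at every week (quasi-likelihood test of edgeR with the 48 animals fitted together, Benjamini-Hochberg adjusted p value under 0.01 over all tested genes, absolute log2 fold change of at least 1). Of all tested genes, the shares called higher were 15.7%, 18.1% and 19.4% at these weeks. Ranked by log2 fold change among the 12756 genes, *Spp1* was 37th at week 4, 36th at week 8 and 98th at week 12. *Itgam* took ranks 292, 190 and 904, and *Cd68* ranks 1318, 1639 and 1673. The median log2 fold change of the 6 genes was 1.03, 0.99 and 1.14 at the 3 weeks.

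**Figure D1:**
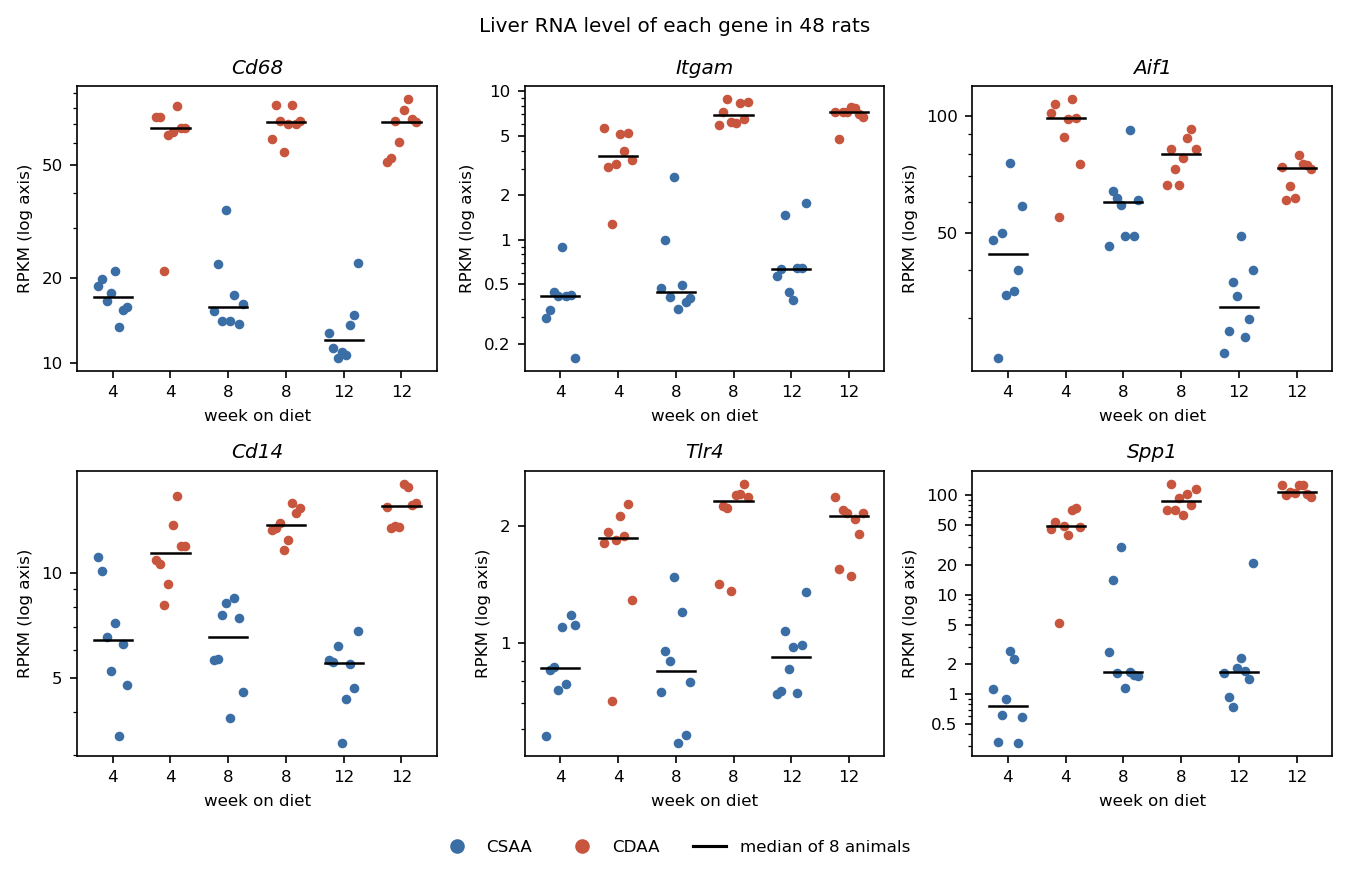
RPKM (log axis) of the 6 genes in each of the 48 rats, by week on diet, with CSAA in blue and CDAA in red; each point is 1 animal and bars are medians of 8. The diets did not overlap at any week for *Spp1* and *Itgam*, and single animals of both diets lie between the groups.

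*Spp1*, the gene of osteopontin, showed the largest difference of the 6 genes at every week. On CSAA its RPKM at week 4 was 0.326 in the lowest animal, 0.757 at the median and 2.71 in the highest, and on CDAA it was 5.15, 48.8 and 74.1. At week 8 the lowest, median and highest values were 1.15, 1.66 and 30.5 on CSAA, and 63.4, 87.6 and 131 on CDAA. At week 12 they were 0.737, 1.66 and 20.7 on CSAA, and 96.3, 107 and 128 on CDAA. Every CDAA animal was above every CSAA animal at each week. Its reads per animal were 7 to 80 on CSAA at week 4 and 2534 to 3712 on CDAA at week 12. Among the tested genes its mean RPKM had rank 9636 on CSAA and 1439 on CDAA at week 4. These ranks were 5214 and 720 at week 8, and 6721 and 592 at week 12.

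The log2 fold change of *Spp1* on CDAA was 4.98 ± 0.63 (SE) at week 4 (edgeR adjusted p = 4.48e-09), 3.25 ± 0.54 at week 8 (adjusted p = 8.16e-07) and 4.10 ± 0.57 at week 12 (adjusted p = 1.41e-08). Its size, unlike the call, depended on the high control animals. Without animal 504 the week 8 value was 4.13, without both 502 and 504 it was 5.14 ± 0.55, and without animal 908 the week 12 value was 5.36. The 6 other CSAA animals of week 8 had *Spp1* RPKM values of 1.15 to 2.63, the 7 others of week 12 had values of 0.737 to 2.34, and the 7 CDAA animals of week 4 besides animal 303 had values of 40.3 to 74.1. The medians of RPKM, which single animals move little, stood 64.5-fold apart at week 4, 52.9-fold at week 8 and 64.4-fold at week 12.

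The diet effect on *Spp1* was not shown to differ between weeks. It was lower by 1.73 ± 0.78 (log2) at week 8 than at week 4 (interaction, edgeR adjusted p = 0.085), and this estimate was 0.15 without animals 502 and 504. From week 8 to week 12 the effect differed by 0.85 ± 0.73 (adjusted p = 0.386). Without animal 908 this difference was 2.12 ± 0.65 (adjusted p = 0.00872) and past the threshold, and without 502 and 504 it was -0.96. Between week 4 and week 12 the effect differed by -0.88 ± 0.79 (adjusted p = 0.412), and by 0.38 without animal 908. Within CSAA, *Spp1* at week 8 was 2.43 ± 0.61 (log2) above week 4 (adjusted p = 0.0254), and 0.60 without animals 502 and 504. The corresponding value for week 12 against week 4 was 1.78 ± 0.63 (adjusted p = 0.0204), and 0.52 without animal 908. Neither met the threshold of 0.01 in edgeR, but both did in DESeq2 (adjusted p = 0.00295 and 0.00665). In edgeR the former also met it without animal 908 (adjusted p = 0.00678), which belongs to neither of its groups but enters the shared fit, and the latter without 502 and 504 (adjusted p = 0.00347). *Spp1* at week 12 against week 8 within CSAA differed by -0.65 ± 0.54 (adjusted p = 0.363). This value was -1.91 without animal 908 (adjusted p = 0.002, past the threshold), 0.16 without 504 and 1.17 without 502 and 504. In the order of mean RPKM, the 3 CSAA groups (1.11 at week 4, 3.90 at week 12, 6.82 at week 8) did not differ from their neighbours by more than the pooled SD, and the CDAA groups followed at 48.5 (week 4), 91.5 (week 8) and 112 (week 12), each step larger than the pooled SD. A change over the weeks on CDAA was not shown by edgeR's test, with log2 values of 0.70 ± 0.49 for week 8 against week 4 (adjusted p = 0.237), 0.20 ± 0.48 for week 12 against week 8 (adjusted p = 0.867) and 0.90 ± 0.49 for week 12 against week 4 (adjusted p = 0.108). The last of these passed in limma-voom (1.13, adjusted p = 0.00335) and in limma on log2(RPKM + 1) (1.43, adjusted p = 0.00467). Every CDAA animal of week 12 (RPKM of 96.3 or more) was above every CDAA animal of week 4 (at most 74.1). The same held for CPM after TMM scaling (104 or more against at most 92.9). The edgeR fit shares its estimate of spread with the CSAA groups, which held the high animals 502, 504 and 908. After division by the TMM factor, the step between the CDAA groups of weeks 8 and 12 was within the pooled SD.

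*Itgam*, which codes for the alpha chain of Mac-1, was the member with the next largest difference, at a much lower level. Its RPKM on CSAA at week 4 was 0.160 in the lowest animal, 0.418 at the median and 0.888 in the highest, and on CDAA it was 1.28, 3.69 and 5.70. At week 8 these values were 0.344, 0.443 and 2.65 on CSAA, and 5.91, 6.93 and 8.91 on CDAA. At week 12 they were 0.391, 0.640 and 1.77 on CSAA, and 4.76, 7.26 and 7.84 on CDAA. As for *Spp1*, the diets did not overlap at any week.

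Its log2 fold change was 2.72 ± 0.30 (SE) at week 4 (edgeR adjusted p = 2.07e-10), 2.67 ± 0.28 at week 8 (adjusted p = 2.37e-11) and 2.25 ± 0.28 at week 12 (adjusted p = 9.32e-10). Leaving out animals 502 and 504 gave 3.46 at week 8. The read counts behind the CSAA values were small, with a median of 23.5 reads at week 4, 28 at week 8 and 45 at week 12. Within CSAA, *Itgam* was higher at week 12 than at week 4 by 0.99 ± 0.31 on the log2 scale (adjusted p = 0.00957), just under the 2-fold threshold, and by 1.22 without animal 105 of CSAA at week 4, which had the highest value of its group. Leaving out any of animals 105, 901, 904, 905, 906 and 907 carried it past that threshold. Without animal 908, the highest of CSAA at week 12, it was 0.79 (adjusted p = 0.0418), and the adjusted p was above 0.01 in 31 of the 48 fits without 1 animal. It was also above 0.01 in limma-voom (0.0471), with RLE size factors (0.0123), without the filter (0.013), with library size alone (0.0294) and in limma on log2(RPKM + 0.1) (0.0357) and log2(RPKM + 1) (0.142). The effect of diet on *Itgam* differed between week 8 and week 12 by -0.42 ± 0.39 (adjusted p = 0.43), and by -1.13 without animals 502 and 504 (adjusted p = 0.00934, past the threshold). Within CDAA, week 8 exceeded week 4 by 0.66 ± 0.25 (edgeR adjusted p = 0.0284), which did not meet the threshold. Its adjusted p was under 0.01, at less than 2-fold, in limma-voom (0.000478) and with library size alone (0.0084). In limma on log2(RPKM + 0.1) and log2(RPKM + 1) it was 0.0041 and 0.000105. In edgeR it was 0.00449 without animal 504 and 0.00294 without 502 and 504. Week 12 exceeded week 4 by 0.52 ± 0.25 (edgeR adjusted p = 0.0721). This p was 0.00274 in limma-voom, 0.00992 with library size alone, and 0.00479 and 0.000137 in limma on RPKM. Mean RPKM of the CDAA groups stood at 3.89 (week 4), 6.99 (week 12) and 7.24 (week 8), and the last 2 were within the pooled SD of each other.

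*Cd68*, the lysosomal membrane glycoprotein, was well expressed on both diets. Its RPKM at week 4 was 13.5 in the lowest, 17.2 in the median and 21.2 in the highest CSAA animal, and 21.1, 67.7 and 80.8 on CDAA. At week 8 it was 13.8, 15.7 and 34.8 on CSAA and 55.6, 70.9 and 81.8 on CDAA. At week 12 it was 10.4, 12.0 and 22.7 on CSAA and 51.3, 71.2 and 85.8 on CDAA. The diets were separate at weeks 8 and 12. At week 4 they overlapped through animal 303 alone, whose 21.1 lay next to the highest CSAA value, with the other 7 CDAA animals at 63.7 or more.

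The log2 fold change of *Cd68* was 1.45 ± 0.15 (SE) at week 4 (edgeR adjusted p = 4.25e-11), 1.34 ± 0.15 at week 8 (adjusted p = 6.09e-11) and 1.54 ± 0.15 at week 12 (adjusted p = 1.63e-12). Leaving out any 1 animal moved it by little, within 1.41 to 1.56 at week 4, 1.29 to 1.52 at week 8 and 1.49 to 1.65 at week 12. The 3 CDAA groups, with mean RPKM of 64.4 (week 4), 70.6 (week 8) and 68 (week 12), did not differ from their neighbours in this order by more than the pooled SD. The ratio of medians of RPKM was 3.94, 4.51 and 5.91 at weeks 4, 8 and 12, and that of TMM-scaled values 2.93, 2.79 and 3.35. The diet effect was not shown to differ between week 4 and week 12 (interaction 0.08 ± 0.21, edgeR adjusted p = 0.786), and this estimate was -0.03 without animal 303.

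*Cd14*, the co-receptor for lipopolysaccharide, had higher RPKM on CDAA at all weeks, with a difference that depended on the scaling. RPKM on CSAA was 3.40, 6.41 and 11.1 in the lowest, median and highest animal of week 4, and on CDAA it was 8.09, 11.4 and 16.6. The corresponding values were 3.83, 6.55 and 8.46 against 11.7, 13.7 and 15.9 at week 8. They were 3.26, 5.53 and 6.83 against 13.5, 15.6 and 18.1 at week 12. In RPKM the diets overlapped at week 4 only. With TMM the log2 fold change was 0.34 ± 0.15 (SE) at week 4 (edgeR adjusted p = 0.0431), 0.51 ± 0.15 at week 8 (adjusted p = 0.00253) and 0.74 ± 0.15 at week 12 (adjusted p = 2.9e-05), so that *Cd14* was higher at weeks 8 and 12, by less than 2-fold. With library size alone it was 0.77, 1.11 and 1.56.

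*Tlr4*, the signalling receptor that CD14 serves, was the least abundant of the 6 genes on CDAA, with rank 10467 by mean RPKM at week 12. Its RPKM was 0.574, 0.861 and 1.18 in the lowest, median and highest CSAA animal of week 4, against 0.708, 1.87 and 2.28 on CDAA. At week 8 these were 0.553, 0.846 and 1.48 against 1.36, 2.32 and 2.58, and at week 12 they were 0.740, 0.918 and 1.35 against 1.49, 2.13 and 2.38. The diets overlapped at weeks 4 and 8 and were separate at week 12 in RPKM, but not after TMM scaling. The log2 fold change with TMM was 0.51 ± 0.17 (SE) at week 4 (edgeR adjusted p = 0.00614), 0.64 ± 0.17 at week 8 (adjusted p = 0.000602) and 0.27 ± 0.16 at week 12 (adjusted p = 0.123). Without animals 303, 504, 908 and 1102 the week 12 value was 0.46 (adjusted p = 0.00831). The adjusted p of week 4 was above 0.01 in 8 of the 48 fits without 1 animal and with each week fitted alone (0.0192). With library size alone the 3 values were 0.95, 1.24 and 1.09.

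*Aif1*, the gene of IBA1, was the most abundant of the 6 genes in every CSAA animal and in every CDAA animal of week 4. RPKM on CSAA was 23.7, 44.0 and 75.8 in the lowest, median and highest animal of week 4, against 55, 98.8 and 111 on CDAA. At week 8 these values were 46.2, 60.0 and 92.0 against 66.5, 80.0 and 92.6, where 7 of the 8 CSAA animals were below every CDAA animal and the other was close to the highest CDAA value. At week 12 they were 24.4, 32.1 and 49.1 against 60.6, 73.6 and 79.2, with no overlap in RPKM.

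With TMM, *Aif1* was higher on CDAA at week 4, by 0.60 ± 0.15 on the log2 scale (edgeR adjusted p = 0.000432). Its log2 fold change was -0.21 ± 0.15 at week 8 (adjusted p = 0.183) and 0.25 ± 0.15 at week 12 (adjusted p = 0.113). The direction at week 8 depended on the scaling, since library size alone gave 0.40 (adjusted p = 0.0171), with 1.01 at week 4 and 1.08 at week 12. *Aif1* was the only one of the 6 genes whose diet effect differed between weeks at an adjusted p under 0.01, with a fall of 0.81 ± 0.21 (log2) from week 4 to week 8 (interaction, adjusted p = 0.00204), less than 2-fold. Within CDAA it fell by 0.46 from week 4 to week 8 (adjusted p = 0.00761) and by 0.70 from week 4 to week 12 (adjusted p = 6.54e-05). The former was -0.21 with library size alone (adjusted p = 0.267), and its adjusted p was also above 0.01 in DESeq2 (0.0141), with RLE size factors (0.0178) and in 13 of the 48 fits without 1 animal. The latter was -0.36 with library size alone (adjusted p = 0.0431). The interaction was likewise smaller with library size alone, at -0.61 (adjusted p = 0.0316). In limma on log2(RPKM + 0.1) and log2(RPKM + 1) it was -0.65 and -0.64 (adjusted p = 0.0214 and 0.019). Within CSAA *Aif1* was higher by 0.35 ± 0.15 at week 8 than at week 4 (edgeR adjusted p = 0.171), which also enters the interaction. From week 8 to week 12 it fell by 0.71 on CSAA (edgeR adjusted p = 0.000127).

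For the remaining comparisons between weeks, the 13 other interactions, that of *Cd68* given above among them, had estimates from -0.47 to 0.47. Their edgeR adjusted p values were 0.0803 or more. The 25 other changes between weeks within a diet ranged from -0.35 to 0.71, with edgeR adjusted p values of 0.0543 or more. They include those of *Itgam* (CDAA, week 12) and *Aif1* (CSAA, week 8) against week 4 given above. Without animal 504 the interactions of weeks 8 and 4 turned to 0.05 for *Cd68* and 0.47 for *Itgam*. Without animal 303, *Tlr4* on CDAA turned to -0.04 at week 8 against week 4. Without 303, 504, 908 and 1102, *Cd68* on CSAA at week 12 was -0.46 against week 4 and -0.35 against week 8 (edgeR adjusted p = 0.000186 and 0.00413). With all animals, 0 of the 6 genes were called in these comparisons between weeks. Among all tested genes and in either direction, the interactions gave calls for 4.25% (week 8 and week 4), 4.01% (week 12 and week 8) and 5.04% (week 12 and week 4). Within CSAA the shares were 0.0470% (week 8 against week 4), 2.78% (week 12 against week 8) and 2.68% (week 12 against week 4), and within CDAA they were 5.02%, 1.43% and 10.6%.

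**Figure D2:**
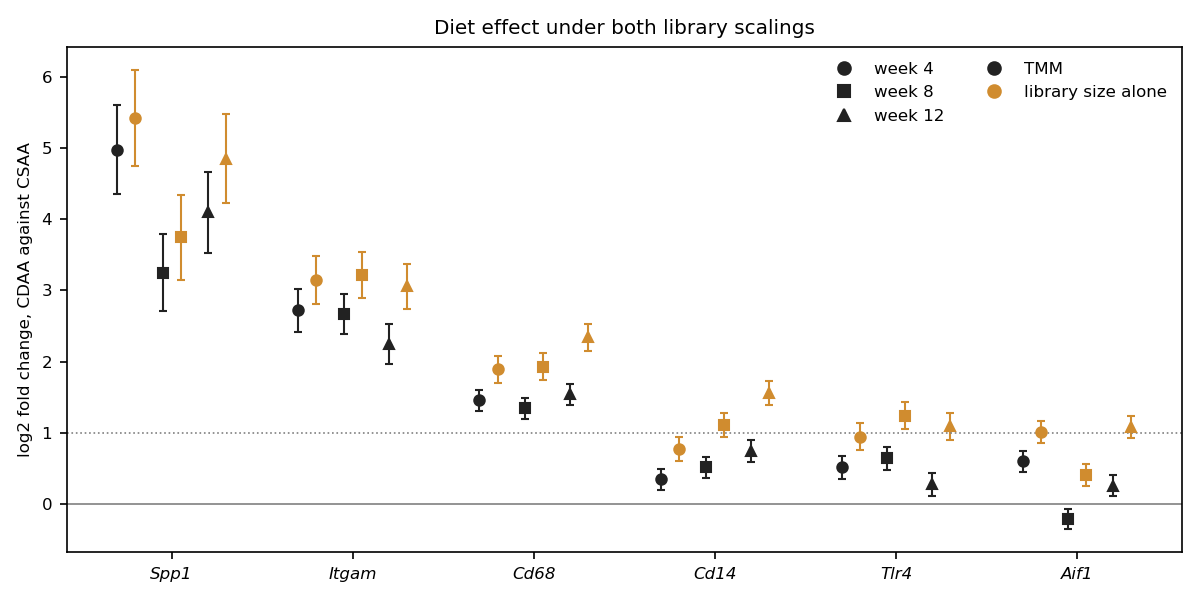
Log2 fold change of CDAA against CSAA (vertical axis) of the 6 genes at weeks 4 (circles), 8 (squares) and 12 (triangles), from edgeR with TMM (black) and with library size alone (orange); bars are SE, the dotted line marks 2-fold. *Spp1*, *Itgam* and *Cd68* lie above 2-fold with both scalings, and *Cd14*, *Tlr4* and *Aif1* lie below it with TMM at all weeks.

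With library size alone, *Aif1* at week 4, *Cd14* and *Tlr4* at week 8 and all 3 at week 12 also passed both thresholds, which made 4, 5 and 6 of 6 genes called higher, where 23.3%, 33.6% and 38.1% of all tested genes were. Genes with every CDAA animal above every CSAA animal were also counted under both scalings. In RPKM 2, 4 and 6 of 6 genes were separate at weeks 4, 8 and 12, against 13.9%, 45.6% and 54.5% of the tested genes. In TMM-scaled CPM 2, 3 and 4 of 6 were separate, against 8.71%, 20% and 19.8%. After TMM scaling *Spp1* and *Itgam* were separate at all weeks, *Cd68* at weeks 8 and 12 and, of the other 3, *Cd14* at week 12.

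Ratios of 2 genes within an animal do not hold the library scaling, and were compared between the diets as the log2 ratio of reads (two-sided exact permutation test of 8 animals against 8 over 12870 splits, where the smallest possible p is 0.0001554). Of the 45 ratios, 15 pairs at 3 weeks, 40 had a Benjamini-Hochberg adjusted p under 0.05 over the 45. The ratio of *Spp1* to each of the other 5 genes was higher on CDAA at every week. Its log2 ratio to *Cd68* averaged -4.07 ± 1.14 (SD, n = 8) in controls and -0.36 ± 0.64 (SD, n = 8) under CDAA at week 4, and -2.45 ± 1.16 and 0.97 ± 0.29 at week 12. These differences amounted to 3.71 at week 4, 2.84 at week 8 and 3.43 at week 12 (exact permutation p = 0.0001554 at each week, no overlap). Against *Itgam* the difference was smaller, 2.37 at week 4 (exact permutation p = 0.0003108), 1.27 at week 8 (exact permutation p = 0.00373) and 2.57 at week 12 (exact permutation p = 0.0001554).

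The log2 ratio of *Itgam* to *Cd68* was also higher on CDAA, by 1.35 at week 4 (exact permutation p = 0.0003108), 1.57 at week 8 (exact permutation p = 0.0001554) and 0.85 at week 12 (exact permutation p = 0.00451). Between *Cd68* and *Aif1*, both used as general markers of macrophages, the ratio was higher on CDAA by 0.76 at week 4 (exact permutation p = 0.00606), 1.57 at week 8 and 1.26 at week 12 (exact permutation p = 0.0001554 at both). The ratio of *Cd68* to *Cd14* was higher by 0.99 at week 4 (exact permutation p = 0.0014), 0.84 at week 8 (exact permutation p = 0.0001554) and 0.79 at week 12 (exact permutation p = 0.000466). *Cd14* and *Tlr4*, partners in the sensing of lipopolysaccharide, were not shown to differ in their change at weeks 4 and 8, where the log2 ratio differed between the diets by -0.06 (exact permutation p = 0.838) and -0.11 (exact permutation p = 0.552). At week 12 the ratio averaged 1.50 ± 0.38 (SD, n = 8) in controls and 1.98 ± 0.32 (SD, n = 8) under CDAA, a difference of 0.48 (exact permutation p = 0.0168, adjusted 0.0189). *Tlr4* to *Aif1* differed by -0.17 at week 4 (exact permutation p = 0.425), 0.84 at week 8 (exact permutation p = 0.000466) and -0.01 at week 12 (exact permutation p = 0.93). The last of the 5 ratios that did not pass was *Cd14* to *Aif1* at week 4, with a difference of -0.23 (exact permutation p = 0.484).

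**Figure D3:**
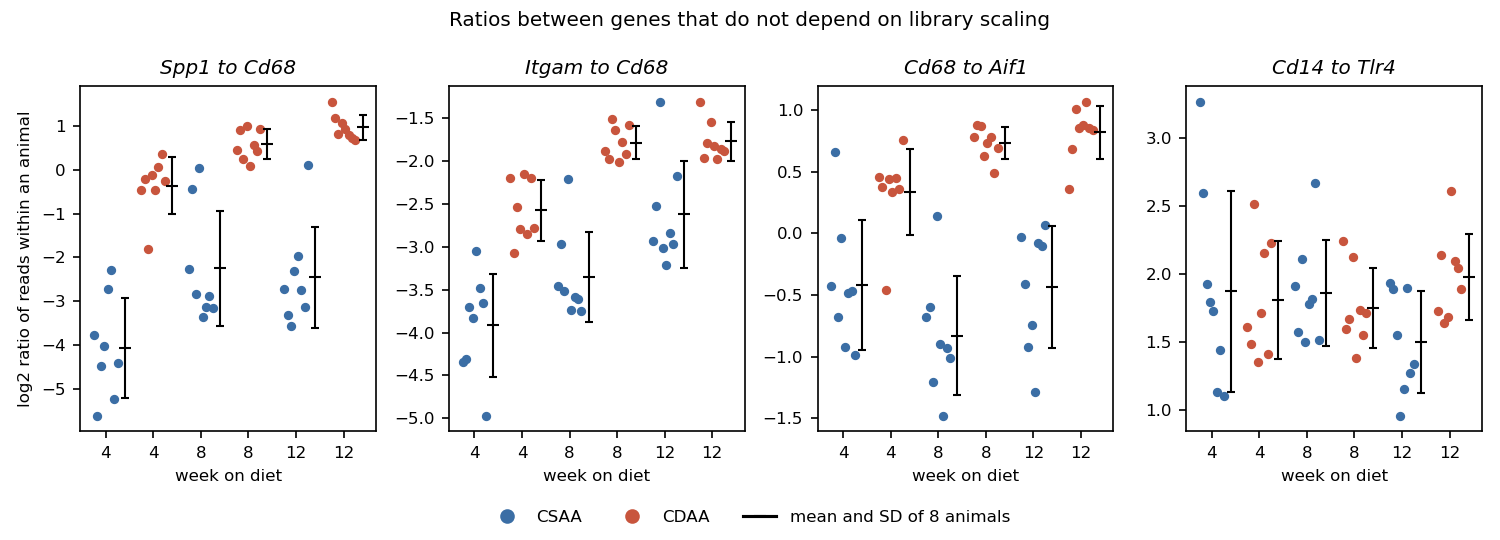
Log2 ratio of the reads of 2 genes within each animal (vertical axes) by week on diet, CSAA in blue and CDAA in red; points are animals, black bars the mean and SD of 8. The ratio of *Spp1* to *Cd68* is separate between the diets at all weeks, and that of *Cd14* to *Tlr4* overlaps at all weeks.

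In RPKM, which is scaled to gene length and can be set side by side between genes, the order of the genes changed with diet and time. *Cd68* was above *Spp1* in all 24 CSAA animals. On CDAA, *Spp1* was above *Cd68* in 1 of 8 animals at week 4, 7 of 8 at week 8 and 8 of 8 at week 12, and above *Aif1* in 0, 5 and 8 of 8. By week 12 *Spp1* was thus the most abundant of the 6 genes in every CDAA animal. *Itgam* stayed below *Spp1*, *Cd68* and *Aif1* in every CDAA animal.

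**Figure D4:**
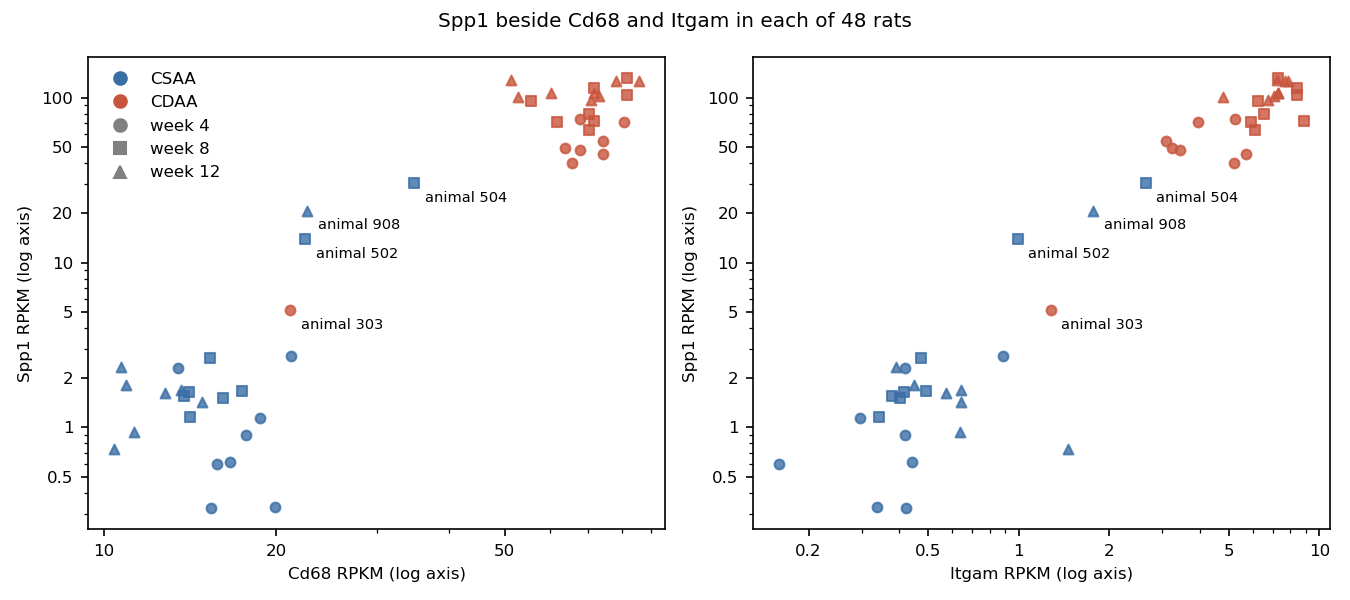
*Spp1* RPKM (vertical, log axis) beside *Cd68* RPKM (left, log axis) and *Itgam* RPKM (right, log axis) in each of the 48 rats; color marks the diet and shape the week. By their *Spp1*, animals 303 (CDAA) and 502, 504 and 908 (CSAA) lie between the clouds of the diets, at 5.15, 13.9, 30.5 and 20.7.

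Animals 504 and 908 held the highest values of *Spp1*, *Cd68* and *Itgam* in their groups, and animal 303 the lowest. Animal 504 had RPKM values of 30.5, 34.8 and 2.65 for these genes, where the medians of the other 7 CSAA animals of week 8 were 1.65, 15.3 and 0.414. Animal 908 had 20.7, 22.7 and 1.77, against medians of 1.62, 11.3 and 0.636 in the other 7 of its group. Among those 7, animal 903 came close to it in *Itgam* (1.46) but had the lowest *Spp1* (0.737). Over that group of 8, Spearman's rho of *Spp1* with *Itgam* was -0.31 (exact permutation p = 0.462). Animal 303 of CDAA had 5.15, 21.1 and 1.28, against 49.6, 67.8 and 3.94. Its *Cd68* lay within the range of the CSAA animals of week 4 (13.5 to 21.2). For *Aif1*, animal 504 had rank 5 of 8 in its group, and animals 908 and 502 had rank 2. The *Aif1* RPKM of animals 504, 908 and 502 was 59.1, 40.1 and 64.0, against medians of 60.9, 29.9 and 59.1 in the others. After the mean of each group was taken off, *Spp1* correlated over the 48 animals with *Cd68* (r = 0.68) and *Itgam* (r = 0.65) more than with *Tlr4* (r = 0.36), *Aif1* (r = 0.19) and *Cd14* (r = -0.03), which is a description that includes these animals. Among the 12755 other tested genes, *Cd68* had rank 344 and *Itgam* rank 445 by this correlation with *Spp1*, so that it was not particular to them.

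Within single groups of 8 animals, 30 correlations of *Spp1* with the other genes were calculated from log2 CPM with TMM, and 0 passed an adjusted p of 0.05 by Pearson's r, with 6 at an unadjusted p under 0.05, and 1 by Spearman's rho. The 1 was *Itgam* on CSAA at week 8 (r = 0.96, exact permutation p = 0.00186, adjusted 0.0558, and rho = 0.95, exact permutation p = 0.00114, adjusted 0.0342), where animals 502 and 504 stand apart. Without the 2 animals farthest from the median of *Itgam*, r was 0.64. For *Cd68* on CDAA at week 4, r was 0.96 with animal 303 (exact permutation p = 0.05, adjusted 0.25, rho = 0.33, exact permutation p = 0.428), and -0.25 without the 2 farthest animals, so this relation rested on those animals.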

How the data were processed

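From 48 livers, poly(A) RNA was sequenced in single-end mode from a stranded library. The authors aligned the reads to Rnor_6.0 with STAR, after quality control with FastQC 0.11.2, and assigned them to the genes of Ensembl with featureCounts; the strand setting of the counting is not given in the sources used here. The deposited counts are reads per gene without normalization. The deposited RPKM values are relative to gene length and library size, and for the 6 genes the length implied by counts and RPKM was nearly constant over animals. All columns with values of a sample were used.

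Diet and week were taken from the labels and animals from their identifiers. As no source names separate cages, p values measure the spread between animals. The most similar pair within a group (animals 1107 and 1108) had a chi-square per gene of 3.28, where sampling noise gives near 1. No library was thus a copy of another of its group, and all animals were counted separately. This does not show that animals sharing a cage are independent, which could not be tested without cage labels.

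The test was edgeR 4.0.16 under R 4.3.3 (TMM, quasi-likelihood test on the counts, 1 coefficient per group, prior count of 2 for log2 values) over 12756 genes, with Benjamini-Hochberg adjustment over all of them; the study used limma-voom, kept as an alternative with limma 3.58.1. DESeq2 1.42.0 was run without independent filtering and without replacing outlying counts. On simulated counts of the week 12 comparison over 12756 genes, 200 had a simulated log2 fold change of 2. Of these, 193 were recovered by edgeR, 190 by limma-voom and 191 by DESeq2, with 0 false calls each. All groups were simulated from the mean profile of CSAA at week 12, apart from these 200. The difference in library composition between the diets (mean TMM factors 0.777 and 1.37 at week 12) was thus not simulated. The recovery therefore says nothing of the calls that depend on the scaling. Log2 ratios used a pseudocount of 0.5, and exact permutation tests scipy 1.17.1. Log2 RPKM in the alternatives used a pseudocount of 0.1 or 1. Sequencing batches are not named in the labels and were not modelled.

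Symbols came with the identifiers that define the set. The deposited tables were not paired with other gene names, so lists of Kupffer cell, monocyte, lysosome, TLR4 pathway, integrin, osteopontin receptor and hepatocyte genes were not analysed here. All 6 members are named, and of other genes none. Members, lists and the animals left out together were chosen with earlier results of these data known, and leaving out animals 502 and 504 was chosen after seeing the data. Promoters were matched by symbol in RefSeq tables.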

Additional observations from a re-analysis of the deposited data

Results flagged for a closer look

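Over 36 groups of 8 animals (6 genes in 6 groups), 5 held 1 animal whose log2 CPM with TMM factors lay farther from the rest than the 95% critical value of Dixon's test for 8 animals allows. Chance gives about 1.8 on average. The 36 are not independent, as the 6 genes were measured in the same animals, and the 5 came from animals 303, 908 and 1102 alone. In CDAA at week 4, animal 303 was lowest in *Cd68* and in *Spp1*, with the gap to the next animal taking 0.822 and 0.761 of the range of the group. In CSAA at week 12, animal 908 was highest in *Cd68* (0.554) and in *Spp1* (0.636). In CDAA at week 12, animal 1102 was lowest in *Itgam* (0.728). Animals 502 and 504 are high together in *Spp1*, so that neither is alone at the end of the range, and the ratio for that group does not pass.

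The diet effect on *Aif1* differed between week 4 and week 8 by -0.81 on the log2 scale (edgeR's test of the interaction, adjusted p = 0.00204). It was -0.94 to -0.69 when each animal was left out in turn, and the TMM factors of the diets also moved apart between these weeks, from 0.808 and 1.07 to 0.848 and 1.29. With library size alone the difference was -0.61 (adjusted p = 0.0316), and in limma on log2(RPKM + 0.1) it was -0.65 (adjusted p = 0.0214).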

How the results depend on the processing

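The calls of *Spp1*, *Itgam* and *Cd68* at the 3 weeks were made under every alternative run: limma-voom, DESeq2, RLE size factors, library size alone, no filter, each week alone, RPKM with either pseudocount, and animals left out. Scaling without TMM or RLE moved the other 3 genes. Past the thresholds were then, with library size alone, limma on log2(RPKM + 0.1) and limma on log2(RPKM + 1), *Aif1* at week 4 (1.01, 1.06, 1.04) and week 12 (1.08, 1.09, 1.07) and *Cd14* at week 8 (1.11, 1.14, 1.04) and week 12 (1.56, 1.56, 1.41). *Tlr4* passed with the first 2 of these, at week 8 (1.24, 1.18) and week 12 (1.09, 1.03). *Aif1* at week 8 turned positive (0.40, 0.41, 0.40). The genes called then numbered 5 at week 8 with the first 2, and at week 12 6, 6 and 5.

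The interaction of *Spp1* at week 12 and week 4, -0.88 in edgeR, turned positive in limma on RPKM (0.34, 0.72), without animals 303, 504, 908 and 1102 (0.29) and without animal 908 (range over animals -1.21 to 0.38). Without 502 and 504 its other interactions were 0.15 and -0.96, and its change from week 8 to week 12 on CSAA was 1.17 (range over animals left out -1.91 to 0.16). Between weeks 0 genes were called by edgeR, but 1, *Spp1*, for CDAA week 12 against 4 in limma-voom and in limma on log2(RPKM + 1), *Spp1* for CSAA week 8 against 4 and week 12 against 4 in DESeq2, and, without 502 and 504, *Itgam* for the interaction of weeks 12 and 8 and *Spp1* for CSAA week 12 against 4. Leaving out 1 animal gave 0 to 1 for the interaction of weeks 12 and 8 and for the 3 comparisons within CSAA, *Itgam* in that of weeks 12 and 4 and *Spp1* in the others. The difference between the diets in the log2 ratio of *Tlr4* to *Aif1* at week 12 turned from -0.01 in reads to 0.00957 in RPKM. Of the correlations, 1 passed with log2 RPKM. The cause was not tested. Over all tested genes, those called higher and lower numbered 1998 and 545 at week 4, 2310 and 1546 at week 8, and 2476 and 1441 at week 12 with TMM, and 2967 and 246, 4291 and 546, and 4864 and 311 with library size alone. For CSAA week 8 against week 4 edgeR called 6 genes and DESeq2 60. On CSAA, depth limits *Spp1* and *Itgam*, with median reads of 22.5 to 46.5 and of 23.5 to 45. No paired analysis was possible because the groups share no animal numbers.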
